A study of Homo sapiens with 2 samples.

Results

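The genes of cholesterol and fatty acid synthesis were followed on 2 microarrays of the Hodgkin lymphoma (HL) cell line L-428. The list of 34 genes runs from the enzymes that build isoprenoids and sterols over the sterol sensors of the cell to sterol carriers and the enzymes that make and desaturate fatty acids. Members were matched by symbol and no signal entered the rule, but the list was drawn up with earlier results of these data known. Of the 34 genes, 31 had at least 1 probe set (a group of probes for one transcript) annotated to their symbol alone, and 29 of these had a signal above the filter, among 11794 measured genes in all. Each gene was represented by its probe set with the highest mean log2 signal. One array held RNA of L-428 cells stably transfected with pcDNA6.2-GW/EmGFP-miR-PRAME, a vector for an artificial microRNA against the tumor antigen PRAME. The other held RNA of L-428 cells that had received pcDNA6.2-GW/EmGFP-miR-neg as control, which the authors describe as an empty vector. Both cultures therefore carried a vector with green fluorescent protein and had been selected with blasticidin, and whether they were pools or single clones is not given in the sources used here. The study asked which genes differ in expression after knock-down of PRAME, a repressor of retinoic acid receptor signaling.

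There was 1 array per condition, so no test was performed and no spread between cultures could be given. The number of arrays limits the precision. The deposited values are MAS5 signals, which the authors computed from the probes and scaled so that the mean without the highest and lowest 2% of values was 500.1 on both arrays. Ratios of knock-down over control cells are given on the log2 scale after the median of the probe sets above the filter, 0.045, was subtracted, and a difference is counted from 1.5-fold on (a log2 ratio of 0.58 in either direction). Folds are given after this centering, so they differ slightly from the quotient of the signals. The filter kept probe sets with a mean signal of at least 97.7. The PRAME signal was 1251 in the knock-down cells and 2115 in the control cells (log2 ratio -0.80). The ratio of 3' to 5' signal, a sign of RNA quality, was 1.04 in knock-down cells and 0.948 in control cells for GAPDH, and 1.17 in knock-down cells and 1.14 in control cells for ACTB. All 7 markers of Hodgkin and Reed-Sternberg cells examined were above the filter, among them CD30 (TNFRSF8) with signals of 1667 in the knock-down cells and 1893 in the control cells, whereas all 4 T cell genes and all 3 myeloid genes were below it. Of the 7 Hodgkin and Reed-Sternberg markers, FUT4 was 1.55-fold lower at its brightest probe set, with 782 in the knock-down cells and 1177 in the control cells (its other probe set had a log2 ratio of 0.36), and the other 6 were within 1.5-fold, up to a log2 ratio of 0.25 for IRF4 (5703 in the knock-down cells and 4633 in the control cells). Of 3 epithelial genes, KRT8 was above the filter, with 159 in the knock-down cells and 157 in the control cells. B cell genes were low or below the filter, with CD79A as the brightest at 332 in the knock-down cells and 178 in the control cells. The median signal of all probe sets was 109.9 in the knock-down cells and 91.9 in the control cells, and the part of this gap in the ratios of dim genes was not tested. The general description of the series names another HL line, L-540, and another array type, while the labels of both samples name L-428.

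Cholesterol is built from acetyl-CoA. Thiolase and HMG-CoA synthase make the precursor of mevalonate, which is phosphorylated and decarboxylated to isoprenoids. These are joined to squalene, and squalene is closed to lanosterol and trimmed to cholesterol. The genes of most of these enzymes are controlled by the sterol regulatory element-binding proteins (SREBPs), which SREBF1 and SREBF2 encode. SREBPs are held in the membrane of the endoplasmic reticulum by SCAP and the INSIG proteins while sterols are plentiful, and travel to the Golgi apparatus and are cut into active transcription factors when sterols are scarce. SREBPs bind sterol regulatory elements in promoters, commonly next to sites for the factors NF-Y and Sp1.

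Promoter sequences were looked up for this reason. RefSeq (GRCh38.p14) windows from 250 bases before to 50 bases after a gene's start were at hand for 30 of the 34 members, in 41 windows, and not for ACAT2, FASN, FDFT1 and SQLE. The sterol regulatory element TCACCCCAC was searched on both strands and was found in 1 member, SREBF2, and in 0.430% of all 35116 windows. Its shorter core CACCCCAC, which overlaps it, was found in SREBF2 alone as well, and in 2.79% of all windows. The NF-Y box CCAAT was found in 21 of the 30 members, in 25 of their 41 windows, compared with 34.6% of all windows. The Sp1 box GGGCGG was found in 28 of the 30 members (87.8% of their windows and 45.0% of all windows), and the E-box CACGTG, which SREBPs can also bind, in 4 members (12.2% of their windows and 7.26% of all windows). Among the 9602 measured genes with a window, 43.6% held the NF-Y box and 75.2% the Sp1 box in at least 1 window, and 70.0% and 93.3% of the members did. The E-box was about as frequent in both, with 12.9% of these measured genes and 13.3% of the members. A match is a description of these letters only, and a missing match says nothing on binding, since many sterol regulatory elements differ from this spelling.

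The window of SREBF2 is shown because it holds the exact element, and those of INSIG1 and STARD4, chosen after their values were seen, because these genes had the highest and the lowest log2 ratio of the members. They lie at chr22:41832855-41833154 (plus strand), chr7:155297628-155297927 (plus strand) and chr5:111512486-111512785 (minus strand) and are given in the direction of transcription. Capitals mark the sterol regulatory element, NF-Y boxes (CCAAT, or ATTGG on the other strand) and the E-box.
SREBF2: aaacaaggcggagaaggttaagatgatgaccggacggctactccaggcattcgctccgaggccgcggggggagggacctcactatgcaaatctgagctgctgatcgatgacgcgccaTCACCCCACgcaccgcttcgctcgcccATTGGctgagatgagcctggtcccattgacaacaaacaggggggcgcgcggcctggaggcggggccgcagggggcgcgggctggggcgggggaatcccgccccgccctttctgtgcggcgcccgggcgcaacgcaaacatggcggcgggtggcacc
INSIG1: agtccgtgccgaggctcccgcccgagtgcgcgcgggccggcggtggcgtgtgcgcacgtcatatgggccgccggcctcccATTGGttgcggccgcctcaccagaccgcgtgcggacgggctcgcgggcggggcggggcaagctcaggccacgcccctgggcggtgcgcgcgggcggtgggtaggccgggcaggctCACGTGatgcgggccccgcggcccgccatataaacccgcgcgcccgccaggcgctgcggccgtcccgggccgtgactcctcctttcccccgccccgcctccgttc
STARD4: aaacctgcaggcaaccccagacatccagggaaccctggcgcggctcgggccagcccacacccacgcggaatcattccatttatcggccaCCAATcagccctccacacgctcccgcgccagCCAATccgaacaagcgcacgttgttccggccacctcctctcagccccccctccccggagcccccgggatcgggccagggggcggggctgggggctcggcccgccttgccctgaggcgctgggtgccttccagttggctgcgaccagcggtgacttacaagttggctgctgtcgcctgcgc
The SREBF2 window held the element TCACCCCAC upstream of 1 NF-Y box. The INSIG1 window held 1 NF-Y box and 1 E-box, and the STARD4 window 2 NF-Y boxes.

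Most genes of the pathway had similar signals on both arrays, as did most measured genes. Of the 29 measured members, 26 were within 1.5-fold, as were 10266 of all 11794 measured genes. Within 1.2-fold were 17 members (58.6%, compared with 55.5% of all measured genes). STARD4 and ACAT2 passed 1.5-fold with the lower signal in the PRAME knock-down array. They made up 6.90% of the members, compared with 5.42% of all measured genes. INSIG1 passed it with the higher signal there, which is 3.45% of the members compared with 7.54% of all measured genes. With 29 members, 1 gene makes up 3.45%, so both counts are near the background of all genes. The median log2 ratio of the members was -0.06, with quartiles of -0.27 and 0.19, and that of all measured genes was -0.0069, with quartiles of -0.23 and 0.23. Below 0 were 19 of 29 members (65.5%), compared with 51.0% of all measured genes. This excess of ratios below 0 depended on the scaling. After quantile normalization the median of the members was 0.019 with 14 members below 0, and with the signal-dependent trend removed by loess it was 0.018 with 13 below 0.

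**Figure D1:**
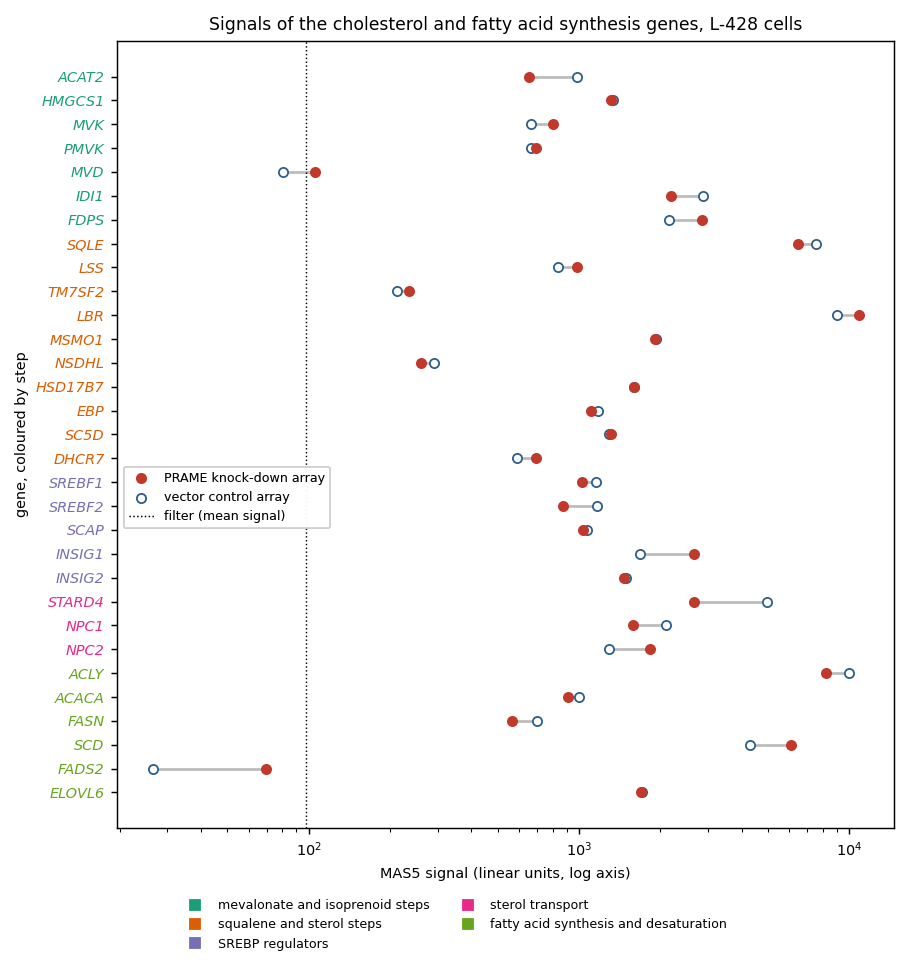
MAS5 signals (log axis) on the PRAME knock-down array (red points) and the vector control array (open blue circles) for the 31 members with a probe set, each at its probe set of highest signal, 1 array per condition. Gene names are colored by step of the pathway, and most pairs lie close together. The widest pair is FADS2, below the filter (69.3 in knock-down and 26.5 in control cells). Above the filter, STARD4 (2665 in knock-down and 4949 in control cells) and INSIG1 (2671 in knock-down and 1678 in control cells) are spread.

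The ratios on these arrays changed with the signal, so the members were also compared with genes of like signal, a choice made after the data were seen. At a mean signal of at least 1000, the median log2 ratio of all 5167 genes was -0.06 and that of the 20 members there was -0.07. Within 1.2-fold were 10 of these 20 members (50%), compared with 64.2% of all these genes. Below 0 were 15 of the 20 (75%), compared with 59.6% of all these genes. Of the 20 members, 1 (STARD4) was lower by 1.5-fold or more in knock-down cells, compared with 4.55% of all these genes. In the other direction, 1 of the 20 (INSIG1) passed 1.5-fold, compared with 1.76% of all these genes. Below a signal of 1000, the median was 0.02 for the 9 members and 0.06 for all 6627 genes. Within 1.2-fold were 7 of the 9 members (77.8%), compared with 48.7% of all these genes. Below 0 were 4 of the 9 (44.4%), compared with 44.3%. Of the 9 members, 1 (ACAT2) was lower by 1.5-fold or more in knock-down cells (11.1%), compared with 6.10% of all these genes. None (0) was higher by 1.5-fold or more, compared with 12.0% of all these genes.

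**Figure D2:**
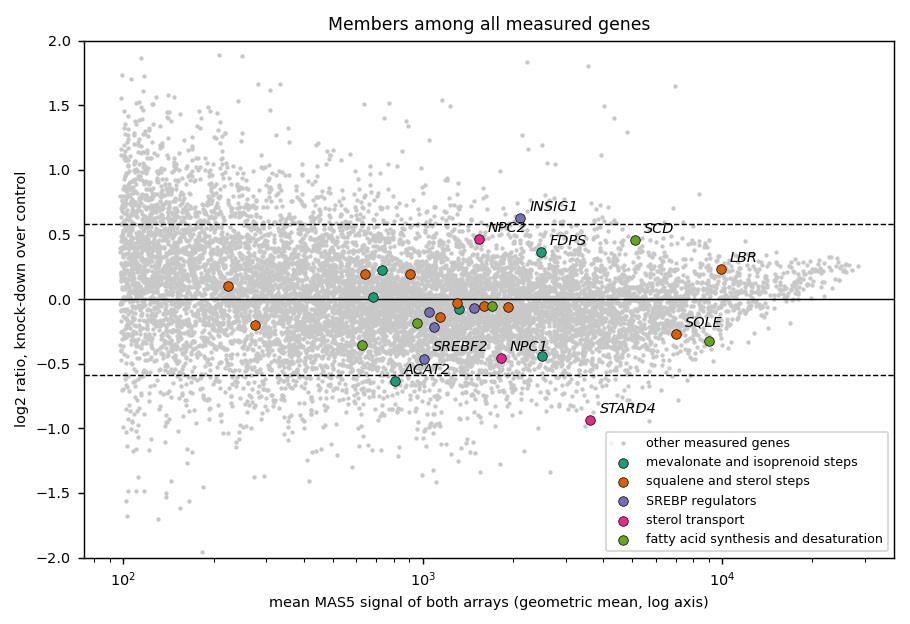
Mean MAS5 signal of both arrays (horizontal log axis) and log2 ratio, knock-down over control (vertical axis), with 1 grey point per measured gene and larger colored points for the 29 members (1 array per condition, dashed lines at 1.5-fold; 11 genes beyond a log2 ratio of 2 in either direction are not drawn). STARD4 and ACAT2 lie below the lower line and INSIG1 above the upper line.

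The first steps, from acetyl-CoA to isoprenoids, differed from gene to gene. ACAT2, the cytosolic thiolase that joins acetyl-CoA units, had a signal of 655 in the knock-down cells and 987 in the control cells, which is 1.55-fold lower (log2 ratio -0.64). It was measured by 1 probe set and passed 1.5-fold only narrowly. After quantile normalization, loess subtraction or a filter at the 75th percentile its log2 ratio of -0.58 was just under this threshold. The 50 nearest measured neighbors of ACAT2 (25 on each side in gene order) had a median of -0.12, with 30 below 0. Their part in the ratio of ACAT2 was not tested.

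HMGCS1, the HMG-CoA synthase, had nearly equal signals at its brightest probe set, 1309 in the knock-down cells and 1340 in the control cells. Its dimmer probe set had 354 in the knock-down cells and 616 in the control cells (log2 ratio -0.84), so both probe sets of this gene gave different answers. This probe set was singled out after its value was seen. The kinases MVK and PMVK were within 1.2-fold, with log2 ratios of 0.22 and 0.02. The 50 nearest measured neighbors of MVK had a median of 0.21, with 9 below 0, and those of PMVK one of 0.14, with 13 below 0. MVD, the decarboxylase that follows them, was below the filter, with signals of 105.5 in the knock-down cells and 80.5 in the control cells.

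IDI1, which interconverts both isoprenoid building blocks, had 2189 in the knock-down cells and 2876 in the control cells (log2 ratio -0.44). Of its other probe sets, one had 2293 in the knock-down cells and 2648 in the control cells (-0.25), and one 331 in the knock-down cells and 369 in the control cells (-0.20). The fourth was above 0, with 586 in the knock-down cells and 523 in the control cells (0.12), so 3 of 4 were lower. FDPS, which joins these blocks to farnesyl diphosphate, had the highest ratio of this group, with 2848 in the knock-down cells and 2149 in the control cells (log2 ratio 0.36). The 50 nearest measured neighbors of FDPS had a median of 0.14, with 13 below 0, and their part in its ratio was not tested. Over the 6 measured genes of the group the median was -0.03, with 3 genes below and 3 above 0.

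At the brightest probe set of each gene, the enzymes from squalene to cholesterol had the narrowest range of the 5 steps. All 10 measured genes were within 1.5-fold, as were 10266 of all 11794 measured genes, and 9 of them were within 1.2-fold, compared with 55.5% of all measured genes. They had log2 ratios between -0.27 and 0.23 and a median of -0.04. The lowest was SQLE, the squalene epoxidase and a rate-limiting enzyme, with 6462 in the knock-down cells and 7556 in the control cells. All 4 SQLE probe sets were below 0, between -0.35 and -0.05. The highest was LBR, the lamin B receptor, which is also a sterol reductase, with 10866 in the knock-down cells and 8978 in the control cells. TM7SF2, the other reductase for the same step, had 235 in the knock-down cells and 213 in the control cells.

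LSS, which closes squalene epoxide to lanosterol, had a log2 ratio of 0.19 at its brightest probe set and -0.24 at a dim one near the filter. DHCR7, which makes cholesterol in the last step of one branch of the pathway, was higher in both probe sets by 0.17 and 0.20. MSMO1, HSD17B7 and SC5D, which act on sterol intermediates, were between -0.06 and -0.03.

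The X-linked genes NSDHL and EBP, a dehydrogenase and an isomerase of sterol intermediates, had log2 ratios of -0.20 and -0.13. The 50 nearest measured neighbors of NSDHL had a median of -0.23 (36 below 0) and those of EBP one of 0.16 (14 below 0). The part of the neighbors' shift in the ratios of MVK and NSDHL was not tested. The dimmer NSDHL probe set had 208 in the knock-down cells and 330 in the control cells (log2 ratio -0.71) and was singled out after its value was seen. The other 2 EBP probe sets above the filter gave 0.24 and -0.02. FDFT1 was not analyzed here, and neither was CYP51A1, whose probe sets carried a further gene symbol.

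Among the regulators, INSIG1 was the one gene past 1.5-fold. INSIG1 encodes a sterol sensor that keeps SCAP and the SREBPs in the endoplasmic reticulum, and is itself a target of SREBPs. Its signal at the brightest probe set was 2671 in the knock-down cells and 1678 in the control cells, which is 1.54-fold higher (log2 ratio 0.63). At the next it was 2186 in the knock-down cells and 1797 in the control cells (0.24), and at the dimmest 1016 in the knock-down cells and 709.7 in the control cells (0.47). All 3 probe sets were thus higher in the knock-down cells, but 2 of them by less than 1.5-fold, and the median over the 3 was 0.47. Without a filter, which changes the centering, the log2 ratio of the brightest probe set was 0.53. The 38 nearest measured neighbors of INSIG1 had a median of 0.02, with 18 below 0.

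INSIG2, the related sensor, had 1470 in the knock-down cells and 1490 in the control cells (log2 ratio -0.06). SCAP, the escort protein of SREBPs, had 1031 in the knock-down cells and 1068 in the control cells (-0.10). SREBF1 had 1028 in the knock-down cells and 1156 in the control cells (-0.21), and its second probe set gave -0.16. These 3 genes were within 1.2-fold.

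The probe sets of SREBF2 disagreed. SREBF2 had 875 in the knock-down cells and 1167 in the control cells at its brightest probe set (log2 ratio -0.46), 669.7 in the knock-down cells and 615 in the control cells at the next (0.08), and 404 in the knock-down cells and 245 in the control cells at the dimmest (0.68). The direction of SREBF2 therefore depended on the probe set, and the median over the 3 was 0.08. The 50 nearest measured neighbors of SREBF2 had a median of 0.07, with 17 below 0.

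**Figure D3:**
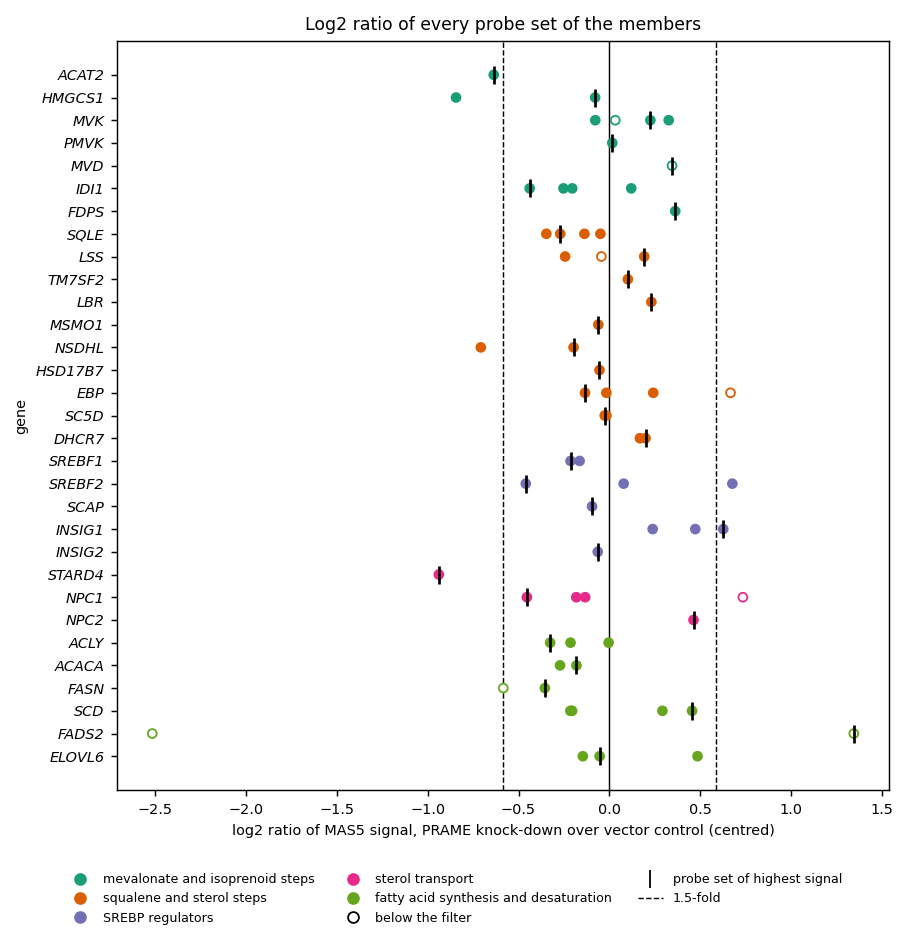
Log2 ratios, knock-down over control, of each of the 67 probe sets of the members (filled points for the 59 above the filter, open points below it, black ticks for the probe set of highest signal, dashed lines at 1.5-fold, 1 array per condition). The 3 INSIG1 probe sets all lie above 0, whereas those of SREBF2 range from -0.46 to 0.68 and those of SCD from -0.22 to 0.45.

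Such disagreement was common on these arrays. Of the 17 members with at least 2 probe sets above the filter, 8 had all of them below 0, 2 had all of them above 0 (INSIG1 and DHCR7), and 7 (41.2%) had them on both sides. Of all 5840 genes with several such probe sets, 50.5% had them on both sides. The probe sets went in both directions with a range over 0.5 in 4 members (SREBF2, SCD, ELOVL6 and IDI1; 23.5%) and in 29.6% of all these genes. The pooled SD between probe sets of one gene was 0.28 for the members and 0.33 for all genes on the log2 scale. It holds no information on how separate cultures vary.

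The sterol carriers showed the widest differences. STARD4, a soluble protein that moves cholesterol between membranes, had 2665 in the knock-down cells and 4949 in the control cells, which is 1.92-fold lower (log2 ratio -0.94). This was the lowest ratio of the 29 members. It was measured by 1 probe set, and its log2 ratio was between -1.03 and -0.86 in the 8 alternative ways of processing. STARD4 lies on chromosome 5, where the median over the other 525 measured genes was -0.16, and its 50 nearest measured neighbors had a median of -0.13, with 36 below 0. The part of this shift in the ratio of STARD4 was not tested.

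NPC1, which exports cholesterol from lysosomes, had 1582 in the knock-down cells and 2101 in the control cells (log2 ratio -0.45). Its 2 dimmer probe sets above the filter were at -0.18 and -0.13. NPC1 lies on chromosome 18, where the median over the other 169 measured genes was -0.30, and 40 of its 50 nearest measured neighbors were below 0 (median -0.31). The part of this shift in the ratio of NPC1 was not tested.

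NPC2, the lysosomal partner that hands cholesterol to NPC1, went the other way, with 1837 in the knock-down cells and 1292 in the control cells (log2 ratio 0.46, 1 probe set). The other 397 measured genes of its chromosome 14 had a median of 0.09. The 50 nearest measured neighbors of NPC2 had a median of 0.12, with 12 below 0, and their part in its ratio was not tested.

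None of the 5 measured fatty acid genes reached 1.5-fold. Their log2 ratios were below 0 in 4 of 5, compared with 51.0% of all measured genes, and that of ELOVL6 (-0.05) kept its sign in 5 of 8 alternatives. ACLY, which supplies cytosolic acetyl-CoA, had 8193 in the knock-down cells and 9956 in the control cells (log2 ratio -0.33), and its other probe sets gave -0.21 and -0.0049. ACACA, the acetyl-CoA carboxylase of the committed step, was at -0.18 and -0.27 in its 2 probe sets. FASN, the fatty acid synthase, had 564 in the knock-down cells and 699.6 in the control cells (-0.36), the lowest ratio of this group. ACLY, ACACA and FASN all lie on chromosome 17, whose other 717 measured genes had a median of -0.03. The nearest measured neighbors had a median of -0.10 for FASN (26 of 39 below 0), -0.06 for ACACA (30 of 50 below 0) and -0.03 for ACLY (28 of 50 below 0), and their part in these ratios was not tested.

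SCD, the desaturase that makes monounsaturated fatty acids, had the highest ratio of the group, with 6071 in the knock-down cells and 4295 in the control cells at its brightest probe set (log2 ratio 0.45). The next probe set had 1135 in the knock-down cells and 899 in the control cells (0.29). Of the dimmer pair, one had 686 in the knock-down cells and 772 in the control cells (-0.22), and the other 613 in the knock-down cells and 685 in the control cells (-0.21). Both brighter SCD probe sets were thus higher and both dimmer ones lower, with a median of 0.04. The 50 nearest measured neighbors of SCD had a median of -0.06, with 30 below 0.

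ELOVL6, an elongase of fatty acids, had nearly equal signals at its brightest probe set (1700 in the knock-down cells and 1711 in the control cells), while the next one had 669.8 in the knock-down cells and 464 in the control cells (log2 ratio 0.48). Both FADS2 probe sets were below the filter and opposed each other, with 69.3 in the knock-down cells and 26.5 in the control cells for one and 4.67 in the knock-down cells and 25.9 in the control cells for the other. FADS1 was not analyzed, since its probe sets carried a further gene symbol. The median of the 5 measured fatty acid genes was -0.18.

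**Figure D4:**
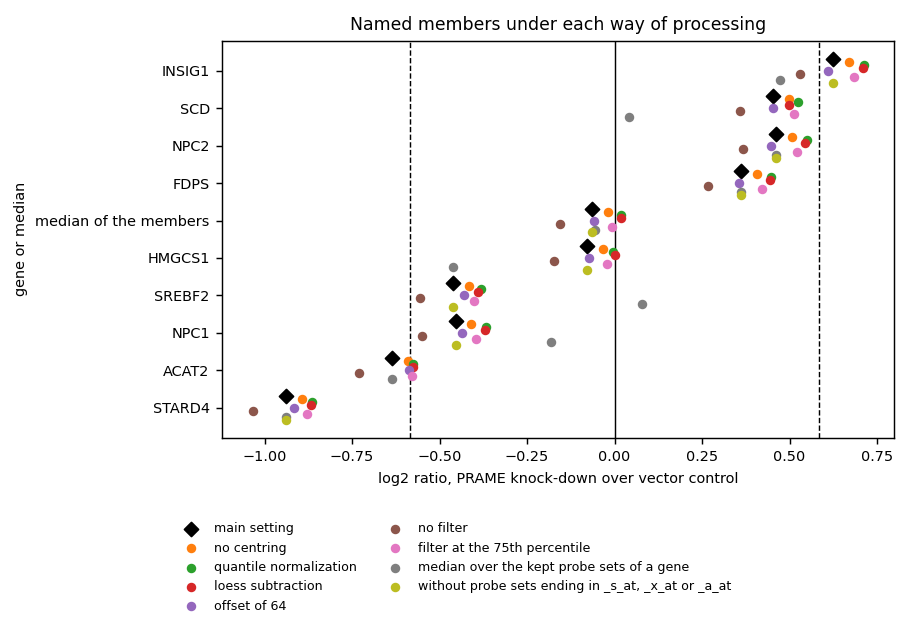
Log2 ratios, knock-down over control, of 9 members and of the median of all measured members under the main setting (black diamonds) and the 8 alternatives (colored points), with dashed lines at 1.5-fold. STARD4 stays below the lower line in all settings, between -1.03 and -0.86, whereas the points of ACAT2 lie on both sides of this line, INSIG1 is within the upper line in 2 settings, and the median of the members changes its sign.

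A further 50 genes of sterol and fatty acid metabolism outside the members were examined as a list, of which 36 were measured. Their median log2 ratio was -0.10, with 23 genes below 0 (63.9%, compared with 51.0% of all measured genes). Within 1.5-fold were 35 of 36, compared with 10266 of all 11794 measured genes. The exception was SCARB1, the receptor that takes up cholesterol from high-density lipoprotein. SCARB1 had 484 in the knock-down cells and 237 in the control cells at its brightest probe set (1.98-fold higher, log2 ratio 0.99), and 0.24 at its other probe set above the filter, so the size depended on the probe set.

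Among the genes that process SREBPs, MBTPS1, the protease that makes the first cut in the Golgi apparatus, had 1301 in the knock-down cells and 900.2 in the control cells (log2 ratio 0.49). MBTPS2, the protease of the second cut, had 2130 in the knock-down cells and 2583 in the control cells (-0.32), and -0.67 at its other probe set. Both were within 1.5-fold at their brightest probe set. The 5 measured genes of sterol efflux and esterification had a median of -0.10. The 9 of fatty acid oxidation had a median of -0.14, with 7 below 0 (77.8%, compared with 51.0% of all measured genes). Their lowest ratio was that of CPT1A, with 185 in the knock-down cells and 259 in the control cells (-0.53). HADHB, a subunit of the mitochondrial trifunctional protein, had the highest ratio with 6941 in the knock-down cells and 4649 in the control cells (0.53).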

How the data were processed

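Total RNA of L-428 cells was hybridized with Affymetrix HG_U133PLUS2.0 arrays, 1 per condition. Per the labels, the authors processed them by MAS5 in Affymetrix Expression Console 1.1. The deposited values are linear intensities of 54675 probe sets. RMA values and detection calls were not used here.

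Control probe sets (62) were not used. Of all probe sets, 41097 carried 1 gene symbol in the platform annotation, 1801 several and 11777 none. Symbols were updated by gene identifier through the RefSeq table of GRCh38.p14 (41043 matched), which also gave the chromosome and order of genes. Signals were log2-transformed with no offset. The brighter 27307 probe sets, by their mean over both arrays, were kept (the filter lies at the median), and log2 ratios were centered on the median of these. No test was possible with 1 array per condition. Members, lists and alternatives were chosen with earlier results of these data known. Values of both arrays are given for PRAME, for members and outside genes past 1.5-fold, for the lowest and highest member of each step, for the regulators and for members whose probe sets disagreed by over 0.5 in both directions. MVD, FADS2, HMGCS1, NSDHL, TM7SF2, LSS, DHCR7, MVK, PMVK, NPC1, ACLY, ACACA, EBP, MSMO1, HSD17B7, SC5D, MBTPS1, MBTPS2, HADHB and CPT1A were given by value beyond this rule, after their values were seen. Neighbors were taken in gene order, 25 measured genes on each side, or fewer where the chromosome ends. Medians of neighbors are given for some members only, with no rule set beforehand. The 8 alternatives are listed in the closing section. The scripts were tested on simulated data. Tables were handled with pandas 2.3.3 and numpy 2.4.6 in Python 3.11.15, loess curves with statsmodels 0.14.6 and plots with matplotlib 3.10.9.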

Additional observations from a re-analysis of the deposited data

How the results depend on the processing

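The 8 alternatives were no centering, quantile normalization, loess subtraction (span 0.4), an offset of 64, leaving out the filter or setting it at the 75th percentile, taking for each gene its median over probe sets, and dropping probe sets that may match several transcripts (endings _s_at, _x_at or _a_at). With no replicate, a single gene counts as moved when it changed by more than 0.33, the SD between probe sets of a gene, and a median when it changed by more than this divided by the square root of its number of genes. The median of the members, -0.06, was 0.019 after quantile normalization, 0.018 after loess subtraction and -0.16 without a filter. Instead of 2 members at least 1.5-fold lower there was 1 after quantile normalization, after loess subtraction, with the filter at the 75th percentile and without the 3 endings. No member (0) was at least 1.5-fold higher with the median over probe sets, and without a filter the 1 higher member was FADS2 instead of INSIG1. The median of the sterol carriers was -0.18 with the median over probe sets. The median of the pathway genes outside the members was -0.034 after quantile normalization, -0.17 without a filter and -0.023 with the filter at the 75th percentile. Single members kept their sign in 203 of 222 recomputed values, and 10 of 29 changed it in at least 1 alternative. Some of these values could not differ from the main setting, such as the median over probe sets for a gene with 1 probe set above the filter. No paired analysis was possible because each condition has 1 array. The arrays limit these values to a description of 2 cultures, and signals near the filter are not well determined.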
